A study of Homo sapiens with 6 samples.

Results

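The 9 genes described here encode the enzymes that build serine from a glycolytic intermediate and those that pass its carbon through folate: PHGDH, PSAT1, PSPH, SHMT1, SHMT2, MTHFD1, MTHFD2, MTHFD1L and ALDH1L2. They were listed by name, with no measured value in the rule but with earlier results of these data known, and all 9 were found among the 60676 genes of the tables. RNA was sequenced from HT29 cells, an established human colorectal adenocarcinoma line, after 48 h in control medium (untreated), in medium without histidine (histidine depletion) or in medium without tryptophan (tryptophan depletion). Each condition had 2 libraries, 6 in all. The labels name no genetic change and no drug in any group. The study's methods describe the histidine-free medium as an RPMI formulation and the tryptophan-free medium as a DMEM F-12 formulation, both with dialysed serum. The proteomics methods of the same study name full RPMI as the control, whereas its RNA methods name a control medium without its base. Standard F-12 contains hypoxanthine and thymidine, which are products of the pathways described here. Between the depletions, the missing amino acid and the base medium therefore cannot be told apart. As the base given to the untreated cells of the RNA libraries is not named, the same holds for each depletion against untreated cells. The labels do not say whether the libraries of a group came from separate cultures. P-values reflect only the spread between these libraries, which the fit pools across genes, and not that of each gene alone. The pooling was made separately in each comparison, so that adjusted p is not to be ranked between the depletions.

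Serine synthesis starts from 3-phosphoglycerate. PHGDH oxidises it, PSAT1 transfers an amino group from glutamate to the product, and PSPH removes the phosphate to leave serine. Serine hydroxymethyltransferase then splits serine into glycine and a one-carbon unit carried on tetrahydrofolate. SHMT1 does this in the cytosol and SHMT2 in mitochondria. In mitochondria MTHFD2 oxidises the carried unit and MTHFD1L releases it as formate, while ALDH1L2 oxidises it to carbon dioxide with the formation of NADPH. In the cytosol the single enzyme MTHFD1 takes formate back onto folate for the synthesis of purines and thymidylate. Several of these genes, among them PHGDH, PSAT1, SHMT2 and MTHFD2, are known targets of ATF4, the transcription factor that is translated when uncharged tRNA activates the kinase GCN2.

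Most of the enzymes were lower after histidine depletion, whereas after tryptophan depletion SHMT1, MTHFD1, PHGDH and the mitochondrial ALDH1L2 were lower, PSPH and MTHFD1L were slightly lower, and PSAT1, SHMT2 and MTHFD2 were higher. After histidine depletion 7 of the 9 genes were called lower and 1 higher, and after tryptophan depletion 6 were called lower and 3 higher. A call is an adjusted p under 0.05 in limma. The fit was made on log2(normalized count + 1), over the genes of a table with a mean of at least 10. The libraries differed widely: after histidine depletion 38.2% of all genes tested were called lower and 39.1% higher, and after tryptophan depletion 34.8% were called lower and 36.1% higher. The counts of calls in the set are to be read against these shares. The median log2 fold change of the 9 genes was -0.65 after histidine depletion and -0.14 after tryptophan depletion, beside 0.01 over all genes tested in both comparisons. Levels below are normalized counts, with the reads of all 6 libraries scaled together, and fold changes come from the fit within each deposited table. Counts are relative to the other genes of a library, so that a change in cell number or in total RNA per cell cannot be seen in them.

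The libraries held 46390819 to 64388876 reads assigned to genes. All 12 colorectal epithelial markers were detected in the untreated cells at 18.9 normalized counts or more, the lowest being CDX1, which was at 0 in both libraries of histidine depletion. Of the 12, 5 were called higher and 7 lower after histidine depletion, and 7 higher and 2 lower after tryptophan depletion. CDX1, counted as lower in both, reached the mean of 10 only through the untreated libraries. KRT20, a keratin of differentiated cells, rose in both, by 1.74 and 2.38, and CEACAM5 was at -2.61 after histidine and 3.92 after tryptophan depletion. Their part in the results below was not tested. Of 10 markers of immune, endothelial, stromal and mast cells, 8 stayed at 2.98 normalized counts or lower in every library, and KIT, TPSAB1 and COL1A2 were at 0. The other two, PECAM1 and COL1A1, brought the sum over the 10 markers to 110 to 116 in untreated cells, 42.5 to 48.8 after histidine depletion and 75.8 to 82.4 after tryptophan depletion. This sum is small beside the level of every enzyme but ALDH1L2, and its part in the results was not tested. In each of the 3 pairs of conditions the libraries of one group did not overlap those of the other for 9 of the 9 enzymes. Over all 18264 genes compared the same held for 87.9% (histidine depletion and untreated), 83.6% (tryptophan depletion and untreated) and 88.6% (both depletions).

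Of the serine synthesis enzymes, PHGDH (ENSG00000092621, GRCh38 chr1:119648411-119744218, plus strand) catalyses the first and committed step. It had 9912 and 10686 normalized counts in untreated cells, 4966 and 5492 under histidine depletion, and 6605 and 6827 under tryptophan depletion. Untreated cells were highest and histidine-depleted cells lowest, with no overlap between the groups. The log2 fold change was -0.97 ± 0.06 (SE, adjusted p = 5.48e-14) after histidine depletion and -0.62 ± 0.05 (SE, adjusted p = 1.53e-25) after tryptophan depletion. Histidine-depleted cells were also below tryptophan-depleted cells in the direct comparison, with a log2 difference of -0.36 ± 0.04 (SE, adjusted p = 8.73e-06). Of the 3 serine synthesis enzymes it was the lowest relative to untreated cells in both depletions, at 50.8% and 65.2%.

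PSAT1 (ENSG00000135069, chr9:78297125-78330093, plus strand), the phosphoserine aminotransferase, moved in opposite directions. Its counts were 25143 and 27194 in untreated cells, 15975 and 17268 under histidine depletion, and 47699 and 48322 under tryptophan depletion. The level was 63.5% of untreated after histidine depletion and 183% after tryptophan depletion. The fitted changes were -0.65 ± 0.06 (SE, adjusted p = 1.79e-10) and 0.87 ± 0.05 (SE, adjusted p = 6.57e-33). The direct comparison gave -1.53 ± 0.03 (SE, adjusted p = 1.98e-12), the largest difference between the depletions among the 9 genes. The 4 pseudogenes named after PSAT1 had at most 82 reads in a library.

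PSPH (ENSG00000146733, chr7:56011051-56051604, minus strand), the phosphatase that ends the pathway, had 4988 and 5268 counts in untreated cells. It had 3258 and 3511 under histidine depletion, and 4696 and 4637 under tryptophan depletion. The fall after histidine depletion was -0.59 ± 0.05 on the log2 scale (SE, adjusted p = 3.75e-10). The change after tryptophan depletion was small, at -0.14 ± 0.05 (SE, adjusted p = 0.00494), and the call was lost when either tryptophan library was left out, with -0.15 (adjusted p = 0.100) without replicate 1 and -0.14 (adjusted p = 0.118) without replicate 2. Of the 3 enzymes of this linear pathway, PSAT1 was thus called higher and PHGDH and PSPH lower after tryptophan depletion, with PSPH at 91.0% of its untreated level.

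The serine hydroxymethyltransferases diverged in both depletions. SHMT1 (ENSG00000176974, chr17:18327860-18363563, minus strand), the cytosolic enzyme, had 3255 and 3111 counts in untreated cells, 1499 and 1657 under histidine depletion, and 751 and 776 under tryptophan depletion. Its level was 49.6% of untreated after histidine depletion and 24% after tryptophan depletion. The fitted changes were -1.0 ± 0.06 (SE, adjusted p = 7.70e-14) and -2.06 ± 0.06 (SE, adjusted p = 9.61e-71). The fall after tryptophan depletion was the largest change of any of the 9 genes, and 2.86% of all genes tested had a lower fold change. Histidine-depleted cells were above tryptophan-depleted cells by 1.04 ± 0.06 (SE, adjusted p = 5.90e-09).

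SHMT2 (ENSG00000182199, chr12:57229573-57234935, plus strand), the mitochondrial enzyme, had 24418 and 26518 counts in untreated cells, 29299 and 30919 under histidine depletion, and 44358 and 44085 under tryptophan depletion. It was the single member called higher in both depletions. The rise after tryptophan depletion was 0.79 ± 0.05 (SE, adjusted p = 1.22e-29). The rise after histidine depletion was 0.25 ± 0.06 (SE, adjusted p = 3.29e-04), and it rested on the scaling. It was 0.00 (adjusted p = 0.942) with quantile normalization and 0.06 (adjusted p = 0.136) with reads scaled to library totals, and without histidine replicate 2 it was 0.22 (adjusted p = 0.0892). In the direct comparison SHMT2 was lower after histidine depletion than after tryptophan depletion, with a log2 difference of -0.56 ± 0.03 (SE, adjusted p = 2.90e-09). Opposite-strand genes, NDUFA4L2 among them, cover 8.38% of its exon bases, and the sources used here do not say whether strand was used in counting.

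MTHFD2 (ENSG00000065911, chr2:74186172-74217565, plus strand), the mitochondrial dehydrogenase and cyclohydrolase, followed PSAT1 in direction. It had 21372 and 23029 counts in untreated cells, 14390 and 14653 under histidine depletion, and 29489 and 30120 under tryptophan depletion. The fitted changes were -0.60 ± 0.05 (SE, adjusted p = 2.32e-10) after histidine depletion and 0.42 ± 0.05 (SE, adjusted p = 4.73e-13) after tryptophan depletion. The groups did not overlap, and the direct comparison gave -1.04 ± 0.03 (SE, adjusted p = 4.50e-12). Opposite-strand genes, SLC4A5 among them, cover 14.1% of the exon bases of MTHFD2, and the 7 pseudogenes of its name had at most 27 reads in a library.

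MTHFD1L (ENSG00000120254, chr6:150865679-151101887, plus strand), which releases formate from mitochondria, had 4390 and 4522 counts in untreated cells, 2454 and 2574 under histidine depletion, and 4103 and 4122 under tryptophan depletion. It fell by 0.82 on the log2 scale after histidine depletion (SE 0.05, adjusted p = 5.07e-13). After tryptophan depletion the change was -0.12 ± 0.05 (SE, adjusted p = 0.0168), and this call too was lost when either tryptophan library was left out, with -0.11 (adjusted p = 0.208) without replicate 1 and -0.13 (adjusted p = 0.139) without replicate 2. The depletions differed by -0.71 ± 0.04 (SE, adjusted p = 2.84e-09). MTHFD1L did not rise with MTHFD2 and SHMT2, the mitochondrial enzymes upstream of it, after tryptophan depletion.

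MTHFD1 (ENSG00000100714, chr14:64388031-64463457, plus strand), the cytosolic enzyme with 3 activities, fell in both depletions. It had 5786 and 5662 counts in untreated cells, 2904 and 2758 under histidine depletion, and 2062 and 2129 under tryptophan depletion. The fitted changes were -1.01 ± 0.05 (SE, adjusted p = 6.51e-15) and -1.46 ± 0.05 (SE, adjusted p = 2.46e-60), and the depletions differed by 0.43 ± 0.04 (SE, adjusted p = 8.36e-07). MTHFD1 and SHMT1, the 2 cytosolic folate enzymes, were the members called with at least a 2-fold change after histidine depletion, where 32.5% of all genes were. This count was 4 with reads scaled to library totals, which moved the median of all genes to -0.18, and 1 when untreated replicate 1 or histidine replicate 1 was left out. PHGDH lay just inside or outside the limit: without untreated replicate 1 it alone passed, at -1.03 (SHMT1 -0.97, MTHFD1 -0.99), without histidine replicate 2 it passed with SHMT1, and with quantile normalization it passed beside both, at -1.19. After tryptophan depletion 3 members passed, with ALDH1L2 as the third, where 20.5% of all genes did. ALDH1L2 did not reach the limit with a pseudocount of 8, at -0.96, and was not tested with a mean of at least 50, which leaves 2 members. Opposite-strand genes, ZBTB25 among them, cover 11.1% of the exon bases of MTHFD1.

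ALDH1L2 (ENSG00000136010, chr12:105019784-105107643, minus strand), the mitochondrial formyltetrahydrofolate dehydrogenase, was close to the limit of what was tested. It had 30.6 and 24.9 normalized counts in untreated cells, 17.2 and 17.3 under histidine depletion, and 9.6 and 11 under tryptophan depletion. The groups did not overlap, but the spread at this depth was wide. The change was -0.64 (95% interval -1.29 to 0.01, adjusted p = 0.0684) after histidine depletion, which did not pass, and -1.35 (-2.09 to -0.61, adjusted p = 7.55e-04) after tryptophan depletion. With quantile normalization or library-total scaling the change after histidine depletion passed, at -0.74 (adjusted p = 0.0352) and -0.82 (adjusted p = 0.0256). The depletions could not be separated, with a difference of 0.69 (-0.05 to 1.44, adjusted p = 0.0819).

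In the direct comparison 2 of the 9 genes, SHMT1 and MTHFD1, were called higher after histidine depletion than after tryptophan depletion, and 6 were called lower. Over all genes 39.9% were called higher and 38.4% lower. PSAT1, SHMT1 and MTHFD2 were called with at least a 2-fold difference, 3 of 9 where 32.1% of all genes were. The median of the 9 genes was -0.46, beside 0.02 over all genes. Among the 9, all serine synthesis and mitochondrial enzymes that passed were thus lower in histidine-depleted cells, and both cytosolic folate enzymes were higher. Relatives outside the 9 did not share this. ALDH1L1, the cytosolic counterpart of ALDH1L2, was lower, at -2.89 (adjusted p = 4.67e-08). MTHFD2L, the close relative of MTHFD2, was not called, at 0.04 (adjusted p = 0.615). With reads scaled to library totals, the count of the 9 with at least a 2-fold difference was 2, without SHMT1, which was at 0.94.

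The balance between mitochondrial and cytosolic folate enzymes was described for 3 pairs as the ratio of their counts per kilobase of exon, with no test. The ratio of SHMT2 to SHMT1 was 11.5 and 13.0 in untreated cells. Histidine-depleted libraries had ratios of 29.9 and 28.5, and tryptophan-depleted libraries had 90.2 and 86.7. The mean rose 2.38-fold after histidine depletion and 7.23-fold after tryptophan depletion. The ratio of MTHFD2 to MTHFD1 was 5.89 ± 0.40 (SD, n = 2) in untreated cells, 7.79 ± 0.38 after histidine depletion and 21.6 ± 0.17 after tryptophan depletion. The ratio of MTHFD1L to MTHFD1 was 2.76 ± 0.10, 3.16 ± 0.22 and 6.97 ± 0.14 in the same order (SD, n = 2). All 3 ratios were higher in both libraries of each depletion than in both untreated libraries. A ratio added after these were seen, that of ALDH1L2 to its cytosolic counterpart ALDH1L1, did not share this pattern. It was 0.44 and 0.34 in untreated cells, 1.25 and 1.44 under histidine depletion, and 0.10 and 0.11 under tryptophan depletion, and it rests on the low counts of ALDH1L2. The sizes of the ratios depend on the length used. With the length of 1 canonical transcript per gene, MTHFD1L stood below MTHFD1 in untreated cells, at 0.71, and above it after tryptophan depletion, at 1.79, and the untreated ratio of MTHFD2 to MTHFD1 was 2.78. The fold changes of the ratios do not depend on length.

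Per kilobase of exon, the order of levels in untreated cells was PSAT1 (11863 ± 657, SD, n = 2), SHMT2 (5546 ± 323), MTHFD2 (1940 ± 102), PSPH (1857 ± 71.4), PHGDH (1121 ± 59.6), MTHFD1L (911 ± 19.1), SHMT1 (454 ± 14.5), MTHFD1 (330 ± 5.05) and ALDH1L2 (2.92 ± 0.43). Only the neighbours MTHFD2 and PSPH overlapped between libraries. Per kilobase of the canonical transcript PHGDH moved up to the third place, at 5519 ± 293, and PSAT1 and SHMT2 overlapped, as did MTHFD1L and SHMT1. ALDH1L2 was last with either length in every condition.

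The depletions remove an amino acid that the enzymes themselves contain, and the coding sequences differ in how often they call for it. SHMT1 has 16 histidine codons among 483 (3.31%) and 2 tryptophan codons. MTHFD2 has 11 histidine codons among 350 (3.14%). PHGDH has 8 among 533 (1.5%) and 6 tryptophan codons (1.13%). The median over 19427 genes was 2.43% for histidine and 1.12% for tryptophan, with 90% of genes, from the 5th to the 95th percentile, between 0.80% and 4.87% and between 0% and 2.94%. All 9 enzymes lay within these ranges for both amino acids. These counts describe the canonical transcripts and carry no measurement of translation.

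Promoter windows from RefSeq (GRCh38.p14) were read for 6 of the 9 genes, PHGDH, PSAT1, SHMT1, MTHFD1, MTHFD2 and MTHFD1L, reaching from 250 bases before to 50 bases after the start. Those of PSPH, SHMT2 and ALDH1L2 were not analysed here. The words searched, on both strands, were TGATGNAA, a form of the composite site that ATF4 and C/EBP proteins can bind, and CACGTG, the E-box bound by MYC and related factors. The first was present in 3.62% and the second in 7.26% of all 35116 windows of 300 bases. MTHFD1L held both, 129 and 154 bases before the start in the first of its 4 listed windows, and MTHFD1 held CACGTG 15 bases before its start. No 2 matches overlapped. Neither word was in the windows of PHGDH, PSAT1, SHMT1 or MTHFD2, which says only that these letters are not in these windows. The matches are shown with the bases around them, 5′ to 3′ on the strand of the gene, with the word in capitals.
MTHFD1L, TGATGNAA, chr6:150866348-150866373, plus strand: cgccggctcTGATGCAAtcgcgccgg
MTHFD1L, CACGTG, chr6:150866322-150866347, plus strand: cgcccggctcCACGTGcgcagccggc
MTHFD1, CACGTG, chr14:64388327-64388352, plus strand: cagtccctaagCACGTGggttgggtt
The 200 bases before the first annotated exon are shown for PSAT1 and SHMT1, the genes with the largest rise and the largest fall after tryptophan depletion.
PSAT1, chr9:78296925-78297124, plus strand: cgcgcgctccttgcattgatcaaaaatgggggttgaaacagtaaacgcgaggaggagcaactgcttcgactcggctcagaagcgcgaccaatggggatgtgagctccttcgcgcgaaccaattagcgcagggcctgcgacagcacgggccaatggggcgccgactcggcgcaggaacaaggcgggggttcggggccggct
SHMT1, chr17:18363564-18363763, minus strand: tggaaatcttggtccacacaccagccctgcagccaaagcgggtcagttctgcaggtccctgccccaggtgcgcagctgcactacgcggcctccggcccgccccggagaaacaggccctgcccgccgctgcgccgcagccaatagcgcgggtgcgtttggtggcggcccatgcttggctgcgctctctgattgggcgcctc

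The genes around the 9 enzymes were read from 6 lists. Of 14 transporters and enzymes that handle serine and glycine, 12 were tested after tryptophan depletion, of which 9 rose and 2 fell, with a median of 0.62. The glycine transporter SLC6A9 rose by 1.91 ± 0.05 (SE, adjusted p = 1.93e-72), from 1385 and 1515 counts to 5489 and 5452. The neutral amino acid transporters SLC1A4, which carries serine, and SLC1A5 rose by 1.34 and 0.83 (adjusted p = 8.53e-58 and 2.35e-27). After histidine depletion 4 of 11 rose and 5 fell, with a median of 0.02. With quantile normalization 3 rose and 8 fell (median -0.21), and with reads scaled to library totals 3 rose and 7 fell (median -0.16). SLC1A4 fell by 0.43 (adjusted p = 1.31e-07), SDSL, a serine dehydratase-like gene, rose by 1.44 and the serine racemase SRR by 0.85 (adjusted p = 6.87e-14 and 1.25e-06), and DLD, a subunit of the glycine cleavage system and of other dehydrogenases, fell by 0.79 (adjusted p = 5.37e-13). Other genes cover 23.8% of the exon bases of SLC1A5 on the opposite strand, and of SRR 35.2% on the opposite and 8.67% on the same strand. GLDC, the decarboxylase of the glycine cleavage system, had at most 18.1 counts in any library. It was not tested after histidine depletion. For tryptophan depletion it reached the mean of 10 only through the tryptophan-depleted libraries, so that a fall in them would not have been tested. Its change of 1.39 (adjusted p = 0.00985) is counted among the 9 that rose but is not read as a result. The call was lost in 4 alternatives (adjusted p from 0.0543 with library-total scaling to 0.229 with DESeq2).

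Among 15 further genes of folate uptake and use, 10 of 13 tested fell and 1 rose after histidine depletion, and 8 of 14 fell and 3 rose after tryptophan depletion, with medians of -0.92 and -0.52. TYMS, which makes thymidylate from the unit that SHMT1 and SHMT2 supply, fell from 1311 and 1154 counts to 189 and 199 after histidine depletion (-2.65 ± 0.09, SE, adjusted p = 1.47e-18). It fell to 86.4 and 75.1 after tryptophan depletion (-3.92 ± 0.10, SE, adjusted p = 4.53e-74). GGH, which removes glutamates from folate, fell in both, at -2.15 and -3.32 (adjusted p = 3.21e-17 and 4.92e-66). ALDH1L1, the cytosolic counterpart of ALDH1L2, had 101 and 104 counts in untreated cells, 19.9 and 17.3 after histidine depletion and 144 in both tryptophan libraries. It fell by 2.40 (adjusted p = 1.43e-09) in the first comparison and rose by 0.48 (adjusted p = 0.00376) in the second, where DESeq2 gave an adjusted p of 0.0757. MTHFD2L, the close relative of MTHFD2, had 581 and 580 counts in untreated cells and fell in both depletions, at -0.39 (adjusted p = 1.53e-04, but 0.0679 with quantile normalization) and -0.45 (adjusted p = 6.13e-07). FTCD, which feeds the one-carbon unit of histidine breakdown into folate, had 7.65 and 7.96 counts in untreated cells, 5.42 and 2.04 under histidine depletion and 16 and 20.1 under tryptophan depletion. It was not tested after histidine depletion against untreated cells. In the other comparisons it reached the mean of 10 only through the tryptophan-depleted libraries, so that a fall in them would not have been tested. The fits gave 1.10 after tryptophan depletion (adjusted p = 0.0186, but 0.161 with DESeq2). For histidine against tryptophan depletion they gave -2.10 ± 0.47 (SE, adjusted p = 0.00153). Neither is read as a result, though FTCD is among the 3 genes counted as rising. Opposite-strand genes cover 47.9% of the exon bases of TYMS.

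The methionine cycle and transsulfuration list held 11 genes, of which 9 were tested in each comparison with untreated cells. After histidine depletion 6 fell and 2 rose, with a median of -0.78, and after tryptophan depletion 5 rose and 4 fell, with a median of 0.15, which was 0.07 with quantile normalization and 0.08 with reads scaled to library totals. CTH, the last enzyme of cysteine synthesis, fell by 1.24 after histidine depletion (adjusted p = 1.62e-13) and rose by 1.32 after tryptophan depletion (adjusted p = 5.39e-49), the directions of PSAT1 and MTHFD2. MAT2A, which makes S-adenosylmethionine, did likewise, at -0.78 (adjusted p = 4.01e-12) and 0.47 (adjusted p = 3.96e-15). MAT2B, its regulatory subunit, rose by 0.34 after histidine depletion (adjusted p = 1.17e-06) and fell by 1.08 after tryptophan depletion (adjusted p = 1.04e-45). AHCY, which hydrolyses S-adenosylhomocysteine, fell in both, at -1.65 and -0.83 (adjusted p = 2.34e-18 and 1.16e-33), and methionine synthase MTR fell by 1.48 after histidine depletion (adjusted p = 4.59e-17). Opposite-strand genes cover 12.5% of the exon bases of MAT2A. Of 12 genes of purine synthesis, a pathway that takes up formyl groups from the folate pool, 8 fell and 2 rose after histidine depletion (median -0.42), and 9 fell and none rose after tryptophan depletion (median -0.46). PRPS2 fell in both, at -2.37 and -2.16 (adjusted p = 1.66e-18 and 4.02e-58). GMPS fell by 1.82 after histidine depletion (adjusted p = 5.66e-20) and was at -0.04 after tryptophan depletion (adjusted p = 0.460), or -0.12 (adjusted p = 0.0024) with quantile normalization and -0.11 (adjusted p = 0.0038) with reads scaled to library totals. PAICS and PFAS fell after tryptophan depletion, at -1.52 and -1.3 (adjusted p = 4.86e-63 and 1.35e-48), while ADSS2 rose by 0.61 after histidine depletion (adjusted p = 6.44e-11).

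Of 16 ATF4 and amino acid response genes, 15 were tested. After tryptophan depletion 12 rose and 2 fell, with a median of 1.06, and after histidine depletion 4 rose and 7 fell, with a median of -0.10. With reads scaled to library totals 3 rose and 10 fell after histidine depletion, with a median of -0.29. ATF4 itself had 35399 and 36172 counts in untreated cells, 29293 and 29332 under histidine depletion and 36096 and 36416 under tryptophan depletion. Its transcript fell by 0.28 after histidine depletion (adjusted p = 5.91e-05) and did not pass after tryptophan depletion, at 0.01 (adjusted p = 0.855), whereas it was -0.18 (adjusted p = 6.15e-05) with quantile normalization and -0.06 (adjusted p = 0.0495) with reads scaled to library totals. ASNS, the asparagine synthetase, had 456 and 398 counts in untreated cells, 376 and 413 under histidine depletion, and 820 and 854 under tryptophan depletion, where it rose by 0.97 (adjusted p = 1.89e-23). Other genes on the same strand cover 49.3% of its exon bases, so that its counts are uncertain. FGF21, a secreted stress hormone, rose by 3.19 after tryptophan depletion (adjusted p = 1.64e-40), DDIT3 by 1.99 (adjusted p = 8.07e-74) and VLDLR by 1.84 (adjusted p = 4.06e-52). DDIT3 has other genes over 31.6% of its exon bases on the opposite strand. After histidine depletion GDF15 and the cystine transporter SLC7A11 fell, at -1.87 and -1.41 (adjusted p = 7.51e-19 and 4.79e-18), while ATF3 rose by 1.49 (adjusted p = 3.15e-18). The other genes among the 4 that rose, named after their values were seen, were SLC3A2, DDIT3 and CHAC1. They were at 1.02, 0.69 and 0.27 (adjusted p = 1.22e-14, 4.43e-10 and 7.05e-05). CHAC1 was at 0.08 (adjusted p = 0.109) with reads scaled to library totals. In the direct comparison 13 of the 15 genes were called lower after histidine than after tryptophan depletion, and 1 was called higher. Over all genes 38.4% were called lower and 39.9% higher. Among the enzymes PHGDH, PSAT1, PSPH, SHMT2, MTHFD2 and MTHFD1L were called lower, and SHMT1 and MTHFD1 higher.

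Most genes of the proliferation list fell in both depletions. All 10 fell after tryptophan depletion, with a median of -2.78, and 8 fell and 1 rose after histidine depletion, with a median of -1.0. The gene that rose was CCNB1, named after its values were seen, and none rose with quantile normalization or reads scaled to library totals. MKI67, a marker of cycling cells, fell in both, at -0.84 and -2.31 (adjusted p = 3.18e-13 and 2.92e-86). MCM2, TOP2A and MCM6 fell after histidine depletion, at -1.76, -1.66 and -1.63 (adjusted p = 2.42e-18, 3.74e-19 and 1.76e-18). After tryptophan depletion MCM5, RRM2 and TOP2A fell, at -3.84, -3.42 and -3.25 (adjusted p = 1.11e-99, 7.75e-104 and 1.05e-105). Opposite-strand genes cover 23.6% of the exon bases of MCM2. The part of proliferation in the changes of the 9 enzymes was not tested.

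The genes whose pattern was most like that of 2 of the enzymes were found by the Euclidean distance of centred log2(normalized count + 1) over the 6 libraries, among 12472 genes. Those nearest to PHGDH were NPM3 (distance 0.08), PSIP1 (0.10) and ATAD3A (0.10). NPM3 had 3676 ± 159 counts (SD, n = 2) in untreated cells, 1874 ± 117 after histidine depletion and 2490 ± 13.1 after tryptophan depletion. Those nearest to MTHFD2 were FAM174B (0.05), TNFRSF1A (0.06) and APBB2 (0.08). FAM174B had 1919 ± 80.5 counts (SD, n = 2) in untreated cells, 1224 ± 20.2 after histidine depletion and 2580 ± 87.9 after tryptophan depletion. With 3 conditions, such likeness describes a shared order of 3 levels.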

How the data were processed

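Poly(A) RNA of 6 HT29 libraries was sequenced as stranded paired-end libraries. According to the study's methods the authors aligned reads to GRCh38 with STAR 2.7.10a, counted reads on exons with HTSeq 2.0.5 and the gencode 38 annotation, and normalised with DESeq2. Strand settings and the use of molecular identifiers in counting are not given in the sources used here. The authors deposited 2 tables of normalized counts (a signal per gene, each count divided by the size factor of its library), one per depletion with the same untreated libraries. The tables were normalised separately. In every library 100% of values were whole multiples of one step (tolerance 0.02), from which whole reads were recovered.

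Depletions were compared with untreated cells within each table by limma 3.58.1 (R 4.3.3, trended variance) on log2(normalized count + 1). The fit covered genes with a mean of at least 10, with Benjamini-Hochberg adjustment over all of these genes. Fold changes on this scale understate those of low genes. Some low genes reached the mean of 10 through their higher group alone, among them FTCD, GLDC, BHMT, GNMT and CDX1. The list counts include their calls. The depletions were compared with each other on recovered reads of the 6 libraries, brought to one scale with size factors taken as medians of ratios. The same untreated libraries serve both depletions. Genes called with at least a 2-fold change passed 0.05 and a log2 change of 1. The fit was also run on simulated counts in which few genes changed, unlike these data, so that its error rate here was not tested. Python 3.11.15 was used for the rest. Gene models were those of gencode 44 on GRCh38.

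Named genes were the 9 enzymes, 11 genes fixed by name and, per list and depletion, up to 3 called genes with the largest change and a mean of at least 100 in the higher group. Some genes that this rule names are not reported here. The enzymes and lists were chosen with earlier results of these data known. Alternatives were other pseudocounts, filters and scalings, edgeR 4.0.16, DESeq2 1.42.0, a replicate block, 1 fit of all libraries and leaving out each library. Library-total scaling, the canonical transcript length and the ratio of ALDH1L2 to ALDH1L1 were added after seeing the data. Replicates differed beyond sampling noise in each group, with a chi-square per degree of freedom of 1.85 to 8.77.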

Additional observations from a re-analysis of the deposited data

How the results depend on the processing

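No fold change of the 9 enzymes changed sign under any alternative run. Among the enzymes tested, the calls that changed were those of SHMT2 and ALDH1L2 after histidine depletion and of PSPH and MTHFD1L after tryptophan depletion, with the values given beside those results. The number of enzymes called with at least a 2-fold change after histidine depletion, 2, was 4 with reads scaled to library totals and 1 to 2 when a library was left out. After tryptophan depletion this count, 3, was 2 with a pseudocount of 8 or a mean of at least 50, and between the depletions it was 2 of 3 with reads scaled to library totals or without histidine replicate 2. Library-total scaling moved the median of all genes from 0.01 to -0.18 after histidine depletion. The number of all genes called with at least a 2-fold change after tryptophan depletion, 3674, was 2397 with a mean of at least 50, where fewer low genes are tested. The labels give same-numbered libraries only a number in common. Correlations of their differences over genes were -0.041 to 0.042, which cannot show whether they were prepared together. The replicate block gave 14432, 12766 and 14335 called genes in the 3 comparisons and changed no call of an enzyme. Where an arm was left with 1 library, that library was assumed to vary like the others. Calls of list genes that changed with the scaling or tool are given beside them where the gene is named with a test. Depth limits ALDH1L2, whose counts were too low to be tested with a mean of at least 50 in any of the 3 comparisons, so that its call after tryptophan depletion was lost there and 8 of the 9 calls were left.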
